A study of Bos taurus with 54 samples.

Results

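The genes described here are 4 CDC-like kinases (CLK1, CLK2, CLK3 and CLK4), 5 serine/arginine-rich splicing factors (SRSF2, SRSF3, SRSF5, SRSF6 and SRSF7) and the arginine/serine-rich protein RSRP1, 10 of 32637 genes counted in bovine blood. They were chosen by symbol, with their heat stress against control values in these libraries already known. Those values are therefore given as a description, without a test. Each of the 10 genes had a row in every library, and all 10 passed the filter on low counts in both kits.

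SR proteins bind exons and introns of pre-mRNA through RNA recognition motifs and recruit the spliceosome through a domain rich in arginine and serine. Phosphorylation of that domain by CLK kinases in the nucleus and SRPK kinases in the cytoplasm moves SR proteins in and out of nuclear speckles and sets their activity. CLK kinases are known as temperature-dependent enzymes, and many transcripts of both families carry retained introns or poison exons that send the mRNA to nuclear retention or nonsense-mediated decay. A 3′ count, as used here, measures polyadenylated RNA near the transcript end and does not tell such forms from productive mRNA.

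Blood was drawn from Holstein male calves in climate-controlled rooms at 6 AM as the thermoneutral control and at 6 PM, after 12 h of heat stress. The samples came from a heat stress trial run for an unrelated project. The sources name no genetic modification or other agent, and all groups share the breed, sex and housing. Red cells were lysed with ammonium chloride before RNA was taken, so the libraries hold RNA of the remaining blood cells. The same RNA was made into libraries with SMART-Seq v4 3′ DE from Takara or QuantSeq 3′ from Lexogen, kits that both read the 3′ end of mRNA. In each kit 13 control and 13 heat stress libraries were compared, and 12 animals had both. The libraries of animal 20 were left out, except where stated, because its label gives 6 PM while the study's count of samples per time makes it a control. The sample number in its label also falls among those of 6 PM libraries, outside the ranges of the 6 AM numbers. Heat stress and time of day changed together and cannot be told apart.

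Reads on genes ranged from 5140595 to 20699030 in Takara and from 4516761 to 58521751 in Lexogen. In Takara 3646 of 12620 genes had an adjusted p under 0.05 between the times (edgeR quasi-likelihood test, Benjamini-Hochberg adjustment), 2325 higher and 1321 lower in heat stress, with total counts as library sizes 1303 higher and 2185 lower. In Lexogen 616 of 11108 genes passed, and log2 fold changes had a median SE of 0.42 against 0.18 in Takara. The sample numbers in the labels form 2 separate ranges with different animals, called run 1 and run 2, and the labels do not say what the runs are. Markers of T cells, B cells, neutrophils, monocytes and platelets were counted in both kits, and of the erythroid list HBA1 had no counts in either.

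RSRP1 lies on chromosome 2 from 127708664 to 127712697 and CLK1 on the same chromosome from 89504940 to 89512198 (ARS-UCD2.0). The other kinases lie on chromosome 3 from 15367649 to 15376598 (CLK2), on chromosome 21 from 34047265 to 34061253 (CLK3) and on chromosome 7 from 39743245 to 39769153 (CLK4). SRSF2 is on chromosome 19 from 55043351 to 55046566, SRSF3 on chromosome 23 from 10502817 to 10509294 and SRSF5 on chromosome 10 from 81495931 to 81501106. SRSF6 is on chromosome 13 from 72096729 to 72102392 and SRSF7 on chromosome 11 from 21086080 to 21091537. All 10 are annotated as protein coding. SRSF2 overlaps METTL23 by 541 bases and CLK4 overlaps the lncRNA LOC132345731, while the annotation places no other gene over the remaining 8.

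RSRP1, an SR-related nuclear protein, showed the widest separation of the times. In Takara its level was 16.7, 25.7 and 32.5 CPM (counts scaled to library size; lowest, median and highest) in control libraries and 28.6, 72.2 and 156.0 CPM in heat stress libraries. Of the 13 heat stress libraries, 11 lay above the highest control library, and all 12 animals with both times had the higher value after heat. In Lexogen the level was 15.7, 28.9 and 58.2 CPM in control and 26.9, 79.6 and 183.7 CPM in heat stress libraries. There 10 of 12 animals were higher after heat and 9 heat stress libraries exceeded every control library. The log2 fold change was 1.58 (SE 0.22) in Takara and 1.48 (SE 0.27) in Lexogen, where the median over all genes was -0.05 and -0.08. Whether a blood cell type became more common or its cells held more of an mRNA cannot be told apart in these bulk samples, here and in all comparisons of the times.

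CLK1 and CLK4, kinases that phosphorylate SR proteins, were higher after heat in most animals of both kits. CLK1 in Takara measured 59.7, 106.5 and 135.8 CPM in control and 79.6, 174.0 and 495.6 CPM in heat stress libraries (lowest, median and highest), a log2 fold change of 1.05 (SE 0.22). CLK4 in Takara measured 49.4, 77.6 and 100.7 CPM in control and 64.7, 110.4 and 297.8 CPM in heat stress libraries, a log2 fold change of 0.96 (SE 0.21). For each kinase 11 of 12 animals were higher after heat and 9 heat stress libraries lay above all controls, while the lower heat stress libraries overlapped the control range. Lexogen gave CLK1 82.1, 129.6 and 202.8 CPM in control and 95.7, 214.7 and 491.9 CPM in heat stress, with the higher value after heat in 10 of 12 animals and a log2 fold change of 0.74 (SE 0.22). Lexogen levels of CLK4 were 41.2, 60.6 and 183.1 CPM in control and 54.8, 95.8 and 225.6 CPM in heat stress, with the higher value after heat in 9 of 12 animals and a log2 fold change of 0.64 (SE 0.23). A single control library, of animal 14, reached 183.1 CPM of CLK4, so that only 1 heat stress library lay above all Lexogen controls.

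CLK3, a kinase of the same family, was higher after heat in most Takara animals, and CLK2 showed little separation of the times. CLK3 in Takara was 17.9, 28.1 and 33.99 CPM in control and 22.9, 38.1 and 97.5 CPM in heat stress libraries, higher after heat in 11 of 12 pairs, with a log2 fold change of 0.74 (SE 0.19). CLK3 in Lexogen was 3.97, 15.1 and 30.3 CPM in control and 10.0, 21.5 and 55.3 CPM in heat stress libraries, higher after heat in 7 of 12 pairs, with a log2 fold change of 0.69 (SE 0.31). The groups overlapped in both kits. CLK2 in Takara was 10.5, 14.6 and 17.7 CPM in control and 11.1, 16.2 and 30.1 CPM in heat stress libraries, with a log2 fold change of 0.24 (SE 0.13). CLK2 in Lexogen was 7.17, 13.2 and 37.9 CPM in control and 0.25, 10.9 and 25.6 CPM in heat stress libraries, with a log2 fold change of -0.20 (SE 0.40). The lowest of these CLK2 values rests on 1 count in the library of animal 18. The times overlapped in both kits.

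**Figure D1:**
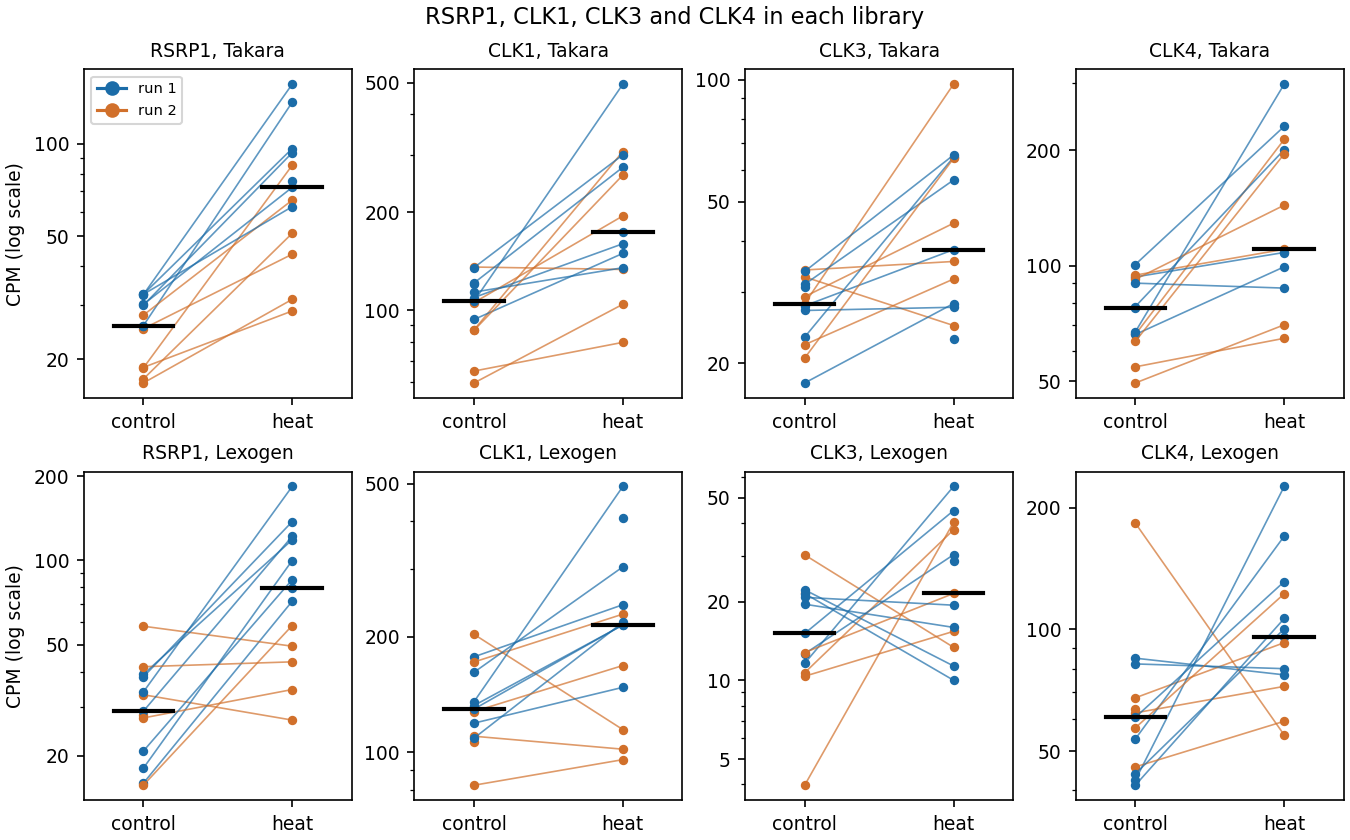
Levels of RSRP1, CLK1, CLK3 and CLK4 in CPM (log scale) in every control and heat stress library, Takara above and Lexogen below. Each point is a library, lines join the times of 1 animal, colours give the sample number runs and bars the medians. In Takara the RSRP1 line of all 12 animals goes up, and in Lexogen the flat or falling RSRP1 lines are those of run 2.

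The 5 SR proteins overlapped between the times in both kits, and their Takara log2 fold changes lay closer to zero than those of RSRP1, CLK1, CLK3 and CLK4. SRSF7, the SR protein with a zinc knuckle, measured 129, 157 and 182 CPM in Takara controls and 115.1, 150.3 and 239.1 CPM after heat, higher in 6 of 12 pairs, with a log2 fold change of 0.02 (SE 0.11). SRSF6 measured 231, 273 and 333 CPM in Takara controls and 167, 235 and 343 CPM after heat, with a log2 fold change of -0.12 (SE 0.12). SRSF5 measured 91.1, 142.8 and 213.8 CPM in Takara controls and 83.7, 128.2 and 291.3 CPM after heat, with a log2 fold change of -0.01 (SE 0.15). For all of these the heat stress libraries spread to both sides of the controls. SRSF3, the smallest SR protein, measured 30.8, 47.4 and 61.5 CPM in Takara controls and 36.3, 49.3 and 82.9 CPM after heat, higher in 8 of 12 pairs, with a log2 fold change of 0.18 (SE 0.14). In Lexogen the log2 fold changes of SRSF3, SRSF5, SRSF6 and SRSF7 were -0.30 (SE 0.31), 0.26 (SE 0.18), -0.27 (SE 0.18) and -0.30 (SE 0.16), with 5, 5, 4 and 4 of 12 animals higher after heat. SRSF7 in Lexogen was lower after heat in all 5 pairs of run 2, with a median paired log2 difference of -1.02, against 0.06 in run 1, where 4 of 7 were higher. SRSF5 was the 1 gene of these 4 with Lexogen libraries after heat, 2 of 13, above all controls.

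SRSF2 needs the counts by strand. It is known as an SR protein that stays in the nucleus, and its gene overlaps METTL23 as given above. Over the 26 Takara libraries the unstranded column held 10893 reads of SRSF2 and the sense column 94577, so the unstranded total was 11.5% of the sense total. In Lexogen the totals were 4131 and 54741 reads, or 7.55%. For the other 9 genes the unstranded total was between 99.8% and 110.8% of the sense total in both kits. By sense counts SRSF2 measured 230, 310 and 566 CPM in Takara controls and 183, 296 and 609 CPM after heat, against 23.4, 38.3 and 51.1 and 20.6, 32.99 and 55.5 CPM in the unstranded column. Sense SRSF2 in Lexogen was 155, 222 and 348 CPM in controls and 82.3, 193 and 269 CPM after heat. It was higher after heat in 2 of 12 pairs in each kit, with a log2 fold change of -0.08 in Takara and -0.35 in Lexogen, and the times overlapped in both columns.

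**Figure D2:**
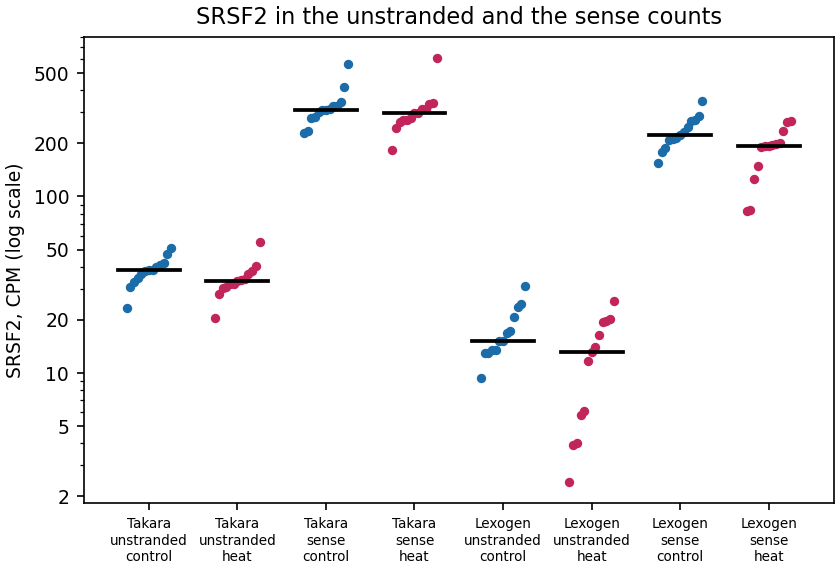
SRSF2 in CPM (log scale) in every library by kit, count column and time, with bars at the medians. In both kits the sense values lie above all unstranded values, while control and heat stress overlap within each column.

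By the same test that was run across all genes, 4 of the 10 genes (RSRP1, CLK1, CLK3 and CLK4) were among those called higher in Takara and 0 among those called lower, where 18.4% and 10.5% of all genes were called. In Lexogen 2 of the 10 (RSRP1 and CLK1) were called higher and 0 lower, where the shares over all genes were 5.09% and 0.459%. The genes were chosen on this contrast, so nothing is read from these counts. DESeq2 on all expressed genes gave 4 and 2 higher and 0 lower. A fit that keeps the animal as a block left 1 in Lexogen, RSRP1, where 0.415% of all genes were called higher. With animal 20 as heat stress, as its label gives it, 4 of the 10 were called higher in Takara, where 4200 of 12652 genes passed, and 2 in Lexogen. With animal 20 as a control, 0 of the 10 were called in Takara, where 0 of 12652 genes passed, 3804 had an unadjusted p under 0.05 and the smallest adjusted p of any gene was 0.0521.

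Animals differed in how far the kinases moved apart between the times. The largest Takara differences of CLK1, in log2 CPM after heat minus control, were 2.22 in animal 18, 1.82 in animal 7 and 1.58 in animal 36. The same 3 animals gave the largest differences of CLK4, at 2.14, 1.69 and 1.62, while CLK3 gave 1.47, 1.79 and 1.63 in them. Animals 3, 14 and 41 lay near zero for CLK1, at 0.29, -0.02 and 0.25. In Takara CLK1 and CLK3 moved in the same direction in 12 of 12 animals and RSRP1 and CLK1 in 11 of 12. In Lexogen these pairs shared a direction in 7 and 10 of 12 animals. These differences are between the samples used to choose the genes, and the 3 kinases share each library and its scaling.

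**Figure D3:**
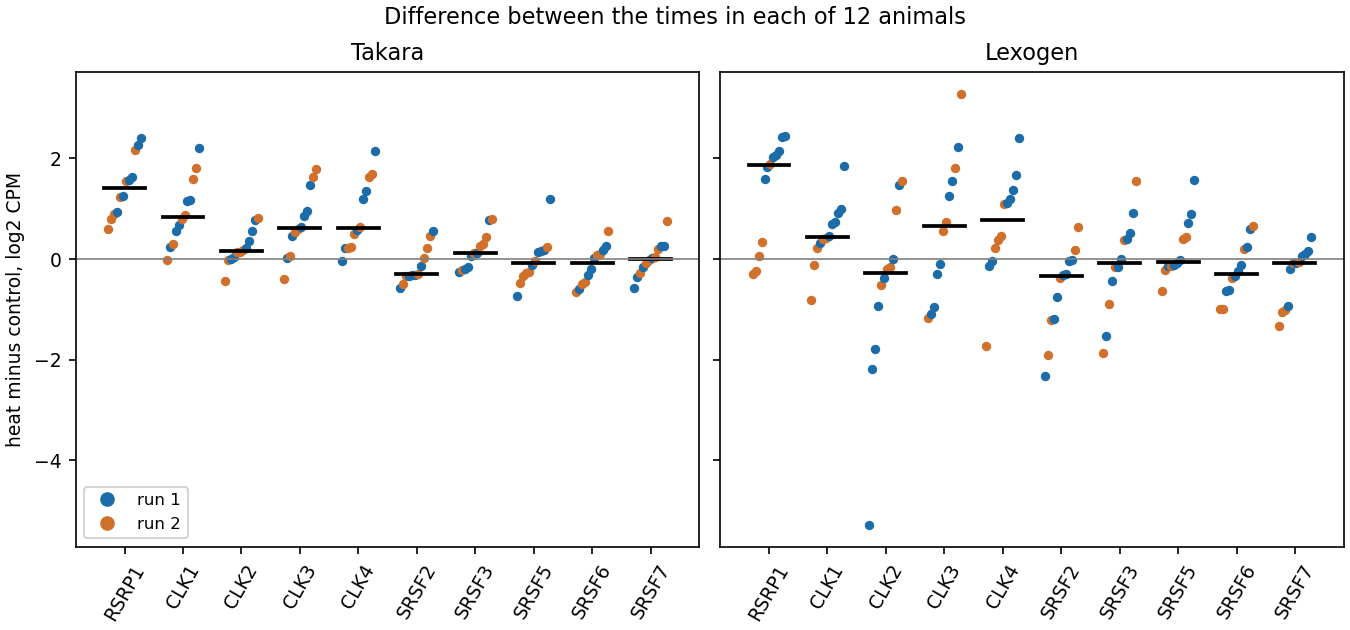
Difference between heat stress and control (log2 CPM) in each of 12 animals per kit for the 10 genes, with bars at the medians and colours for the sample number runs. RSRP1, CLK1, CLK3 and CLK4 have medians above zero in both kits, and each of the 5 SR proteins has animals on both sides of zero.

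Spread between animals also differed among the genes. Within Takara controls the SD of log2 CPM was 0.12 for SRSF7 and 0.17 for SRSF6, against a median of 0.40 over all genes, and 0.58% and 3.90% of genes had a smaller SD. Within Lexogen controls it was 0.23 for SRSF7 and 0.28 for SRSF5, against a median of 0.85, with 1.09% and 3.26% of genes smaller. SRSF7 was thus among the genes with the smallest SD in controls of both kits. That ranking was not matched for read count, and SRSF7 had medians of 1812 and 1685 counts per library over both times (Takara and Lexogen). In heat stress libraries the Takara SD of RSRP1, CLK1, CLK3 and CLK4 was 0.73, 0.73, 0.65 and 0.70, against 0.36, 0.37, 0.29 and 0.33 in controls. The Takara CPM ranges of CLK2, SRSF2, SRSF3, SRSF5, SRSF6 and SRSF7, given above, were also wider after heat. The median SD over all genes was taken in controls alone, so whether the wider spread is particular to any of the genes was not tested.

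Blood cell markers moved between the times as well, which the choice of the 10 genes did not use. The summed level of 11 neutrophil markers was 4856, 12701 and 21119 CPM in Takara controls and 4615, 43455 and 112051 CPM after heat, higher in 10 of 12 animals. Its mean paired log2 difference was 1.62 in Takara and 1.42 in Lexogen (exact two-sided permutation test over sign changes, n = 12, adjusted p = 0.0430 in each). Of the neutrophil markers tested singly, 9 of 10 rose in Takara and 7 of 9 in Lexogen. The summed T cell markers fell by 0.35 on the log2 scale in Takara (exact permutation test, n = 12, adjusted p = 0.0176) and differed by -0.24 in Lexogen (exact permutation test, n = 12, adjusted p = 0.140). The summed B cell markers fell by 0.48 in Takara (exact permutation test, n = 12, adjusted p = 0.0439) and differed by -0.48 in Lexogen (exact permutation test, n = 12, adjusted p = 0.0949). Tested singly, 5 of 10 T cell markers and 1 of 8 B cell markers fell in Takara, where 10.5% of all genes were called lower. In Lexogen 0 of 10 and 0 of 8 fell. Adjusted p for monocyte, platelet and erythroid markers lay between 0.461 and 0.988, with adjustment over 12 tests in all. The mean differences of each of these lists had opposite signs in run 1 and run 2, in both kits. The part of these shifts in the values of RSRP1, the kinases and the SR proteins was not tested.

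The kits were compared within 24 RNA samples that had a library of each, a contrast not used to choose the genes. Over all 12447 genes tested, 44.5% were called higher in Takara and 27.8% lower, and the median log2 difference, Takara minus Lexogen, was 0.41. With total counts as library sizes it was 0.72, so values are best read against that median. Of the 10 genes 8 differed, 4 higher and 4 lower in Takara. SRSF6, a regulator of alternative exons, was 141, 251 and 321 CPM in Takara and 57.7, 87.6 and 172.9 CPM in Lexogen (lowest, median and highest). Takara was higher in 24 of 24 RNA samples, with a log2 difference of 1.44 (SE 0.08, adjusted p = 4.5e-16). SRSF5, the SR protein known for its immediate-early induction in growing cells, was 78.3, 129.2 and 245.2 CPM in Takara and 157.7, 211.2 and 591.7 CPM in Lexogen. Takara was higher in 1 of 24 RNA samples, with a log2 difference of -0.82 (SE 0.08, adjusted p = 1.04e-10). Both genes kept their direction and call with every other scaling, without the filter, with DESeq2 and with sense counts.

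Among the kinases, CLK1 was lower in Takara by the kit contrast, with a log2 difference of -0.61 (SE 0.07, adjusted p = 8.22e-09), and higher there in 1 of 24 RNA samples. CLK3 differed by 0.44 (SE 0.15, adjusted p = 0.00897), close to the median over all genes, and by sense counts by 0.28 (adjusted p = 0.0960). CLK2 and CLK4 differed by 0.05 (SE 0.25, adjusted p = 0.857) and 0.02 (SE 0.10, adjusted p = 0.889). CLK4 differed by 0.33 with total counts as library sizes (adjusted p = 0.00302) and by -0.21 with sense counts (adjusted p = 0.0488), so each alternative changed its call and the sense fit its direction. The unstranded total of CLK4 was 100.7% of its sense total in each kit, while the median of all genes went from 0.41 to 0.22 in the sense fit. RSRP1 differed by -0.48 (SE 0.12, adjusted p = 0.000743), SRSF7 by -0.34 (SE 0.07, adjusted p = 8.04e-05) and SRSF3 by 0.61 (SE 0.17, adjusted p = 0.00218). With total counts as library sizes RSRP1 differed by -0.16 (adjusted p = 0.239) and SRSF7 by -0.02 (adjusted p = 0.789). SRSF2 differed by 1.09 (SE 0.16, adjusted p = 7.24e-07) in the unstranded column and by 0.15 (SE 0.08, adjusted p = 0.105) by sense counts.

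**Figure D4:**
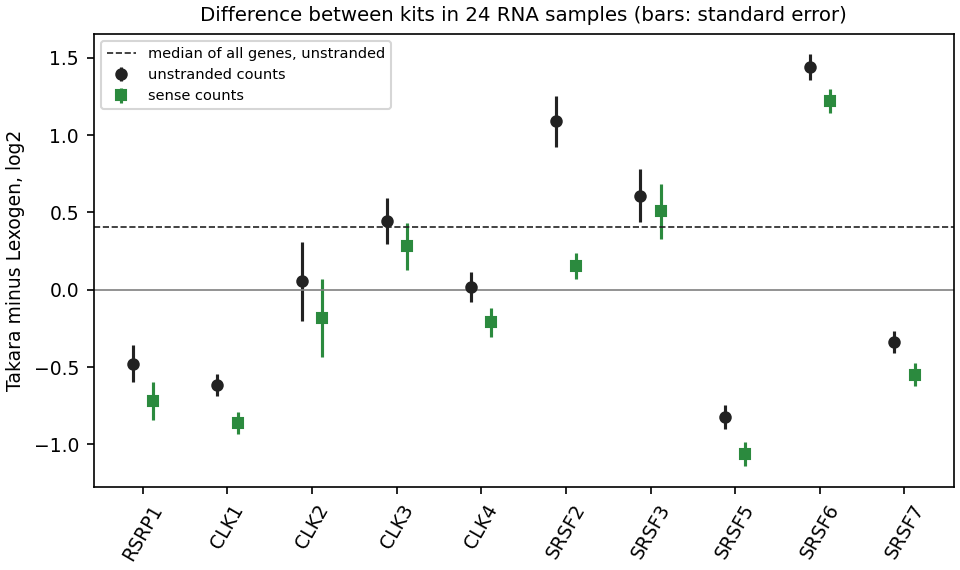
Log2 difference between the kits, Takara minus Lexogen, for the 10 genes in 24 RNA samples, from unstranded and from sense counts, with standard errors. SRSF6 lies at 1.44 and SRSF5 at -0.82, the dashed line marks the median of all genes at 0.41, and SRSF2 drops from 1.09 to 0.15 with sense counts.

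Whether the difference between the times depended on the kit was tested as an interaction. By edgeR 0 of 13354 genes passed, 526 had an unadjusted p under 0.05, and DESeq2 called 1. None of the 10 genes passed by either tool. For RSRP1 the interaction was 0.06 (95% interval -0.42 to 0.54) and for CLK1 0.11 (95% interval -0.17 to 0.40), on the log2 scale. The interaction was 0.32 for SRSF7 (95% interval 0.06 to 0.57) and -0.33 for SRSF5 (95% interval -0.61 to -0.04), with unadjusted p of 0.0222 and 0.0333 and an adjusted p of 1 for each. For CLK2, CLK3 and SRSF3 the intervals spanned more than a log2 unit from end to end, as did that of SRSF2 in the unstranded column. By sense counts the SRSF2 interval was narrower, from -0.04 to 0.61.

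Control libraries of the 2 runs were compared as another contrast outside the choice of genes. RSRP1 in Takara controls was 25.6, 30.1 and 32.5 CPM in the 7 animals of run 1 and 16.7, 18.7 and 27.8 CPM in the 6 animals of run 2. It was the 1 gene of the 10 called, with a log2 difference, run 2 minus run 1, of -0.52 (SE 0.14, adjusted p = 0.0315), where 8.13% of 12977 genes were called. SRSF5 was higher in run 2, with a log2 difference of 0.42 (SE 0.14) that missed the threshold (adjusted p = 0.0661). In Lexogen RSRP1 differed by 0.30 (SE 0.32, adjusted p = 0.823), and there edgeR called 0 of 11844 genes, with 1056 at an unadjusted p under 0.05, and DESeq2 called 111. The lower RSRP1 level in run 2 was thus not seen in Lexogen libraries.

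The difference between the times within the runs was widest apart for RSRP1 in Lexogen. In run 1 all 7 Lexogen animals were higher after heat, with paired log2 differences of 1.59, 2.07 and 2.45 (lowest, median and highest). In run 2 the differences of 5 animals were -0.30, 0.06 and 1.88, with 3 animals higher. The interaction of run and time was -1.64 (SE 0.44, unadjusted p = 0.000708, adjusted p = 0.215) by edgeR and passed by DESeq2 (adjusted p = 0.0331), so its call depended on the tool. In Takara all animals of both runs were higher, with median paired differences of 1.60 in run 1 and 1.06 in run 2 and an interaction of -0.42 (SE 0.32, adjusted p = 0.565). By edgeR 0 of the 10 genes passed this interaction in either kit, where 2.27% of all genes passed in Takara and 0.0222% in Lexogen. At an unadjusted p under 0.05 there were 0 of the 10 in Takara and 3 in Lexogen, where 2236 of 13767 and 1060 of 13484 genes were. DESeq2 called 0 and 1 of the 10, where 594 of 24553 and 85 of 21596 genes were called. Lexogen interactions of CLK1 and CLK4 were -0.88 (SE 0.39, adjusted p = 0.571) and -0.999 (SE 0.45, adjusted p = 0.576). In Lexogen run 2 alone the log2 fold change of CLK1 was 0.15 and that of CLK4 0.07, against 1.02 and 1.07 in run 1 alone. By pairs of run 2, CLK1 was higher after heat in 3 of 5 animals (median difference 0.22) and CLK4 in 4 of 5 (median 0.37). The CLK4 difference was -1.74 in animal 14, whose control library was the highest Lexogen control.

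Of 53 other genes of SR protein biology, listed by function, 51 were tested in each kit. In Takara 10 rose and 1 fell, where 18.4% and 10.5% of all genes were called, and in Lexogen 4 rose and 0 fell, where 5.09% and 0.459% were called. Their median log2 fold change was -0.01 in Takara and -0.02 in Lexogen. Among them 17 and 11 genes had an unadjusted p under 0.05, where 5166 of 12620 genes had in Takara and 1877 of 11108 in Lexogen. DESeq2 called 10 higher and 1 lower in Takara, where 2810 and 1316 of 24553 genes were. In Lexogen it called 6 higher and 0 lower, where 816 and 190 of 21596 genes were. When the animal was kept as a block, 6 rose and 1 fell in Takara (14.9% and 10.1% of all genes). In Lexogen 1 rose, HIPK3, where 0.415% of all genes were called higher. The unstranded total of PPP1CA was 8.28% of its sense total in Takara and 12.2% in Lexogen, and that of UPF1 64.1% and 40.1%. Neither gene was called by unstranded or by sense counts in either kit.

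The SR protein kinases, phosphatases and import factors gave 4 genes that rose and 1 that fell of 14 tested in Takara. Over all genes 18.4% were called higher there and 10.5% lower. HIPK3, a nuclear kinase related to the CLK and DYRK families, was 45.7, 61.3 and 84.9 CPM in Takara controls and 45.6, 181.1 and 492.7 CPM after heat. It rose in both kits, with log2 fold changes of 1.88 (SE 0.32, adjusted p = 0.000396) and 1.505 (SE 0.26, adjusted p = 0.000882), and was higher in 10 of 12 animals in each. These are unstranded values, and of HIPK3 reads on either strand 27.2% were antisense in Takara and 0.79% in Lexogen. By sense counts HIPK3 was also called higher in both kits. SRPK2, a cytoplasmic SR protein kinase, was 148, 178 and 399 CPM in Takara controls and 120, 351 and 800 CPM after heat. It rose by 1.02 (SE 0.24, adjusted p = 0.00272) in Takara and by 0.77 (SE 0.20, adjusted p = 0.0143) in Lexogen, with 10 of 12 animals higher in each, although its heat stress libraries reached below the lowest control. The Lexogen call of SRPK2 was lost with the animal as a block (edgeR adjusted p = 0.101). The related SRPK1 did not pass in either kit and was higher after heat in 3 of 12 Takara pairs and 2 of 12 Lexogen pairs. HIPK2 fell by 0.45 (SE 0.15, adjusted p = 0.0246) in Takara, from a median of 27.8 to 21.7 CPM, and differed by -0.29 (adjusted p = 0.401) in Lexogen. The HIPK2 call was lost in Takara without animal 14, 32 or 36, with log2 fold changes of -0.40, -0.36 and -0.38. HIPK1 and DYRK1A, outside the rule for named genes and named here after their values were seen, made up the rest of the calls. Both lost them with the animal as a block (edgeR adjusted p = 0.0657 and 0.111). The HIPK1 call was also lost without animal 7, 15, 18 or 40, and that of DYRK1A held in 5 of 14 fits that left out 1 animal each, those without animal 3, 12, 14, 32 or 41.

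The SR-related and nuclear speckle proteins gave 4 genes that rose and 0 that fell of 21 tested in Takara, and 1 that rose in Lexogen. Over all genes 18.4% were called higher and 10.5% lower in Takara, and 5.09% higher in Lexogen, so these counts lie near the shares for higher genes. CCNL1 and CCNL2 encode cyclins L, partners of kinases that act on splicing. CCNL2 was 85.9, 129.0 and 148.6 CPM in Takara controls and 117.8, 161.2 and 380.4 CPM after heat, and rose by 0.78 (SE 0.19, adjusted p = 0.00322) there and by 0.90 (SE 0.20, adjusted p = 0.00457) in Lexogen, where the call was lost with the animal as a block (adjusted p = 0.0995). CCNL1 rose by 0.87 (SE 0.20, adjusted p = 0.00195) in Takara and differed by 0.54 (SE 0.18, adjusted p = 0.0876) in Lexogen. RBM39, a U2AF-related splicing factor, was 354, 407 and 520 CPM in Takara controls and 420, 633 and 1106 CPM after heat. It rose by 0.72 (SE 0.13, adjusted p = 0.000452) in Takara, where all 12 animals were higher, and differed by 0.33 (SE 0.13, adjusted p = 0.154) in Lexogen with 10 of 12 higher. SON, a scaffold of speckles named after its values were seen, completed the 4, while the other 17 genes of the list, SRRM1 and SRRM2 among them, did not pass. In Takara run 1 alone 7 of the 21 were called higher, TRA2A, SCAF11, PNISR and ACIN1 among them, where 1879 of 12791 genes were. Run 2 alone gave 0 higher, where 608 of 12661 genes were called. The list's median log2 fold change was 0.20 in run 1 and -0.20 in run 2. By edgeR 0 of the 21 passed the Takara interaction of run and time. At an unadjusted p under 0.05 there were 13, and 2236 of 13767 over all genes. DESeq2 called 2. The SON call was lost with the animal as a block (edgeR adjusted p = 0.0968) and held in 5 of 14 fits without 1 animal, those without animal 3, 14, 29, 32 or 41.

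Of 6 other SR proteins tested, 1 was called in each kit, SRSF12, and the call rested on the strand. Over all genes 18.4% were called higher in Takara and 5.09% in Lexogen. In the unstranded column SRSF12 had log2 fold changes of 1.07 (SE 0.28, adjusted p = 0.00537) in Takara and 1.46 (SE 0.38, adjusted p = 0.0155) in Lexogen, where the call was lost with the animal as a block (adjusted p = 0.209) or without animal 18 or 40. Of its reads on either strand 70.3% were antisense in Takara and 92.4% in Lexogen. By sense counts the log2 fold change was 0.12 (adjusted p = 0.670) in Takara and -0.66 (adjusted p = 0.786) in Lexogen. SRSF1, SRSF4, SRSF9, SRSF10 and SRSF11 did not pass in either kit. Of 10 nonsense-mediated decay factors 1 rose in Takara, the kinase SMG1 (named after its values were seen), where 18.4% of all genes were called higher. In Lexogen 0 passed and DESeq2 called 0. There 1 had an unadjusted p under 0.05, where 1877 of 11108 genes had. With the animal as a block SMG1 did not pass (edgeR adjusted p = 0.134). Its call held in 5 of 14 fits without 1 animal, those without animal 3, 14, 16, 29 or 32, and its log2 fold change was 0.77 in run 1 alone and -0.055 in run 2 alone.

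**Figure D5:**
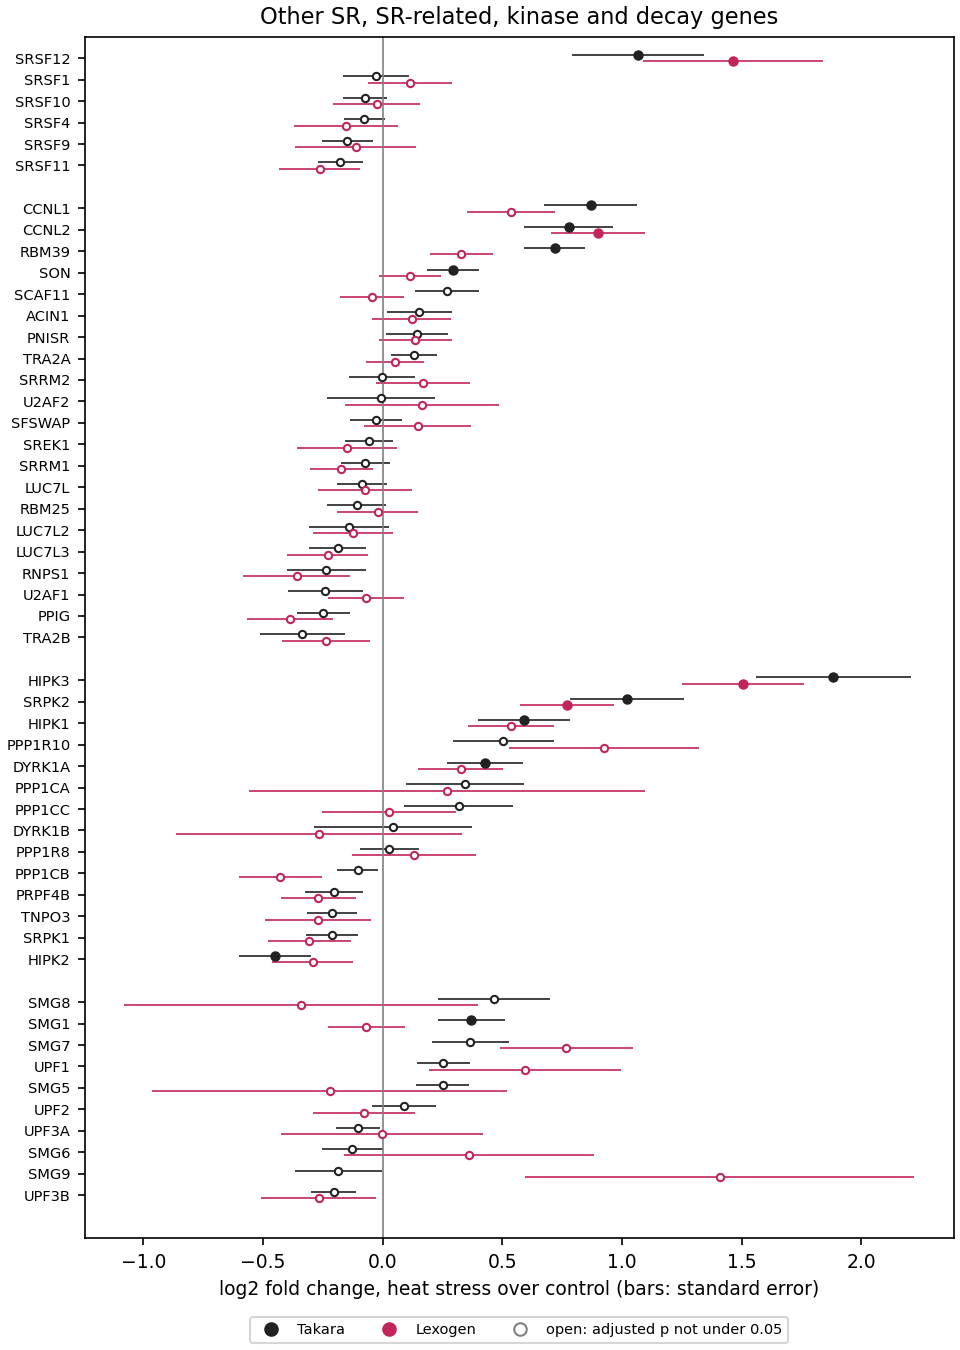
Log2 fold change of heat stress over control with standard errors for the other SR proteins, SR-related and speckle proteins, kinases, phosphatases and import factors, and decay factors, in blocks from top to bottom. Filled points have an adjusted p under 0.05, as HIPK3, SRPK2, CCNL2 and SRSF12 do in both kits.

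The genes whose profile over the 26 libraries of a kit was nearest to the median standardised profile of the 10 were found by the root mean square difference, in SD units. In Takara they were WARS1 at 0.446, HNRNPC at 0.448, HBP1 at 0.454, LOC534155 at 0.459 and ATP6V1G1 at 0.463, where the median over all genes was 1.42. In Lexogen they were OGT at 0.614, LMTK2 at 0.616, PLEKHM3 at 0.696, EIF2AK3 at 0.731 and VPS4B at 0.732, with a median of 1.49. The lists of the kits had no gene in common. OGT, the O-GlcNAc transferase, and HNRNPC, an hnRNP, have their own log2 fold changes of 0.14 (SE 0.17) in Lexogen and 0.78 (SE 0.18) in Takara.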

How the data were processed

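Forward reads were cleaned by the authors with Trimmomatic 0.39 and aligned to ARS-UCD2.0 by STAR 2.7.10b, and the deposited files give raw counts per gene over both strands, for the sense strand and for the antisense strand. Which column they tested is not given in the sources used here; the unstranded counts were used, with sense counts as an alternative. Rows naming no gene held 32.8% to 57.9% of reads in Takara and 32.2% to 46.7% in Lexogen and were left out. Of 32637 gene IDs 30271 matched the RefSeq table of ARS-UCD2.0. SRSF8 had no row and SRPK3 did not pass the filter.

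Counts were analysed with edgeR 4.0.16 (filterByExpr, TMM, quasi-likelihood test, Benjamini-Hochberg adjustment over all genes tested, R 4.3.3), with time alone as the term, as in the study. DESeq2 1.42.0 on all expressed genes was an alternative. CPM used TMM library sizes, and log2 CPM a prior count of 2. Kit contrasts kept the RNA sample as a block. Each library is 1 animal at 1 time. The same animal gave both times, and the correlation of centred levels between times exceeded 0.1 for 11 Takara and 2 Lexogen animals of 12 each. Marker sums were compared by sign changes of 12 paired differences. The time fit was also run on simulated counts drawn independently for each library. These held no animal pairs, runs or shifts in cell makeup, and no statement here rests on them.

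The 10 genes, the lists and the tests were chosen with earlier results of these data known. Named among the other genes were up to 6 per direction with an adjusted p under 0.05 in Takara, those passing in Lexogen, and the 5 nearest profiles per kit. Reads carry no molecular identifiers, so precision covers the spread between libraries only.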

Additional observations from a re-analysis of the deposited data

How the results depend on the processing

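Counts of called genes depended on animal 20, the run, the library size and, in Lexogen, the animal block. With animal 20 as a control, 0 of the 10 genes and 0 and 0 of the other splicing genes (higher and lower) were called in Takara, and 1 and 0 (higher) in Lexogen, where 2 of 11222 genes passed. With animal 20 as heat stress the counts of the 10 genes did not change, and 11 and 1 other genes (higher and lower) were called in Takara and 4 and 0 in Lexogen. Over all genes 2528 and 1672 of 12652 were called there in Takara and 729 and 92 of 11222 in Lexogen. Run 1 alone gave 13 other genes higher and 0 lower in Takara, where 1879 and 751 of 12791 genes were called. Run 2 alone, with fewer libraries, gave 1 of the 10 genes and 1 other gene higher in Takara, where 608 of 12661 genes were. It gave 0 and 0 in Lexogen, where 0 of 11459 genes passed, and SMG1 in Takara was reversed at -0.055. Total counts as library sizes gave 1 of the 10 genes lower (SRSF2, in the unstranded column), 6 other genes higher and 7 lower in Takara, and 1 of the 10 higher in Lexogen. Over all genes that setting called 1303 higher and 2185 lower of 12620 in Takara and 437 higher of 11108 in Lexogen. Total counts shifted the Takara median of all genes by -0.22, and CLK2, at 0.24, became -0.04. With the animal as a replicate block 6 other genes were higher in Takara, and 1 of the 10 and 1 other gene higher in Lexogen, where calls over all genes went from 616 to 63. Run by time calls over all Takara genes went from 312 to 177, and the block moved no other count of the 10 or of the other genes by over 1.5 times. Without the filter 1 other gene was lower in Lexogen, where 1572 of 21596 genes were. By sense counts SRSF12 in Lexogen was reversed at -0.66. DESeq2 called 2 of the 10 genes (RSRP1 and SRSF5) between the runs in Takara controls, where 1581 of 22347 genes were called. For run by time in Lexogen it called 1 (RSRP1), where 85 of 21596 genes were called. Leaving out each animal in turn kept 4 of the 10 genes called higher in Takara and gave 1 to 3 in Lexogen, where 1 remained without animal 7, 15, 16, 18, 19, 29, 36, 40 or 41, and 1 without the deepest library, of animal 15 after heat. Other genes then numbered 6 to 10 higher (6 without animal 7, 15, 18 or 40) and 0 to 2 lower (2 without animal 15) in Takara, and 3 to 5 higher and 0 to 1 lower (1 without animal 23) in Lexogen. Within a run the marker sums had 5 to 7 pairs and none passed, but with so few pairs the test could hardly pass. With all 6 Takara pairs of run 2 lower, the T cell sum still had an adjusted p of 0.1875 (exact permutation test). The means were neutrophil 1.52 and 1.72 in Takara and 1.09 and 1.90 in Lexogen (run 1 and run 2), T cell -0.43 and -0.28 and B cell -0.60 and -0.37 in Takara. Monocyte, platelet and erythroid means had opposite signs in the 2 runs of each kit. In Takara they were -0.61 and 0.91, 0.18 and -0.52, and 0.26 and -0.63, while erythroid in Lexogen was -0.57 and 0.32. The cause of these changes was not tested. CLK2 and, in the unstranded column, SRSF2 rest on few Lexogen reads, with medians of 112 and 140 counts per library, which limits what could be seen there.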

Other observations

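The libraries of animal 20, whose time the sources give differently, entered no comparison other than the alternatives that place it at either time. The Takara library held 120.9 CPM of RSRP1, 340.7 CPM of CLK1 and 289.7 CPM of CLK4, against highest control values of 32.1, 135.4 and 98.5 CPM and highest heat stress values of 149.98, 476.4 and 286.3 CPM when scaled with the others. The Lexogen library of the same RNA held 53.6 CPM of RSRP1, 332.8 CPM of CLK1 and 89.5 CPM of CLK4, where control libraries reached 58.2, 202.6 and 182.9 CPM. SRSF7 was 136.6 CPM in the Takara library, within the range of both times, and 65.7 CPM in the Lexogen library, below the lowest control at 146.5 CPM and the lowest heat stress library at 84.0 CPM. SRSF2 and SRSF6 lay below the lowest control in both kits, at 22.2 and 211.7 CPM in Takara and 7.34 and 46.4 CPM in Lexogen, where the lowest controls were 22.9 and 226.9 CPM and 9.42 and 69.2 CPM.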
